A study of Homo sapiens with 15 samples.

Results

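The clustered and linker histone genes of the human tumour cells are described here in 15 RNA-seq libraries of A549 xenograft tumours. Members were the human rows whose current symbol begins with H1-, H2AC, H2BC, H3C or H4C followed by a number. Pseudogenes (17 rows) and 1 antisense RNA (H1-10-AS1) were left out, and 71 members of 60649 human genes are described. They comprised 9 H1, 15 H2A, 19 H2B, 13 H3 and 15 H4 genes, of which 55 lie on chromosome 6 and 11 on chromosome 1. The classes were set by the symbols and not by any measured value.

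A549 is an established human lung adenocarcinoma line. In every group A549 cells had been placed under the skin of BALB/c nude mice. This strain has no mature T cells but keeps macrophages and other innate immune cells. The mice were unrestrained in the no-stress group (n = 5), restrained 7 days before transplantation in the stress group (n = 5), and restrained 12 days after it in the post-stress group (n = 5). The labels do not say whether these days are durations or starting days, and name no age, sex or pooling of animals. Nor do they say that replicates were separate mice, so the p-values measure only the spread between these libraries. The comparisons ask how restraint at either time altered expression in the tumours, and both restrained groups were set against the same no-stress libraries.

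Histone genes fall into functional kinds. Most clustered genes for the core histones H2A, H2B, H3 and H4 and for several linker histones H1 are transcribed mainly in S phase, when new DNA is packed into nucleosomes. Their mRNAs typically end in a conserved stem-loop bound by SLBP in place of a poly(A) tail, although some of these genes also give polyadenylated transcripts, which accumulate in cells that leave the cycle. H1-10 is a linker histone gene outside the clusters that is expressed independently of replication.

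Promoter stretches are printed for 4 H2B genes whose values are given by library or group, H2BC4, H2BC12, H2BC18 and H2BC21, and for H2AC6, the H2A gene that faces H2BC4, because the octamer element is the classic control element of H2B promoters. The sequences are from RefSeq (GRCh38.p14), run 5′ to 3′ on the gene's own strand, end before the annotated start, and have the octamer ATTTGCAT or its reverse complement ATGCAAAT, and a TATAAA downstream of it, in capitals.
H2BC4, chr6:26124000-26124069, minus strand: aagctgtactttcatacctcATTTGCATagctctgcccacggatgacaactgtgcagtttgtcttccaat
H2AC6, chr6:26124022-26124091, plus strand: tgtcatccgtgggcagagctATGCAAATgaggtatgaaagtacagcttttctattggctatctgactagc
H2BC12, chr6:27146859-27146924, minus strand: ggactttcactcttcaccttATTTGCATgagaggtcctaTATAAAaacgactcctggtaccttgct
H2BC21, chr1:149886683-149886748, minus strand: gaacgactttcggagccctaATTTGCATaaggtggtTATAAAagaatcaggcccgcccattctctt
H2BC18, chr1:149812371-149812439, minus strand: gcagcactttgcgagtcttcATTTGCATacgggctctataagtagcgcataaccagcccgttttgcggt
The stretches of H2BC4 and H2AC6 overlap on opposite strands and hold the same octamer, 123 bases before the start of H2BC4 and 130 bases before that of H2AC6. In H2BC12 and H2BC21 the octamer begins 46 bases before the start, and in H2BC18 49. The printed stretch of H2AC6 ends upstream of its TATAAA, which begins 31 bases before the start and is not shown.

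RefSeq promoters were found for 65 of the 71 members, including all 20 of those tested. Searched on both strands over the 250 bases before the start, ATTTGCAT was present in 14 of 18 H2B promoters (77.8%) and 11 of 14 H2A promoters (78.6%). Of the 8 tested H2B genes, 6 had it and H2BC5 and H2BC15 did not. It was found in none of the 9 H1 or 13 H4 promoters, against 454 of all 27305 promoters in the table (1.66%). Of 11 H3 promoters 1 had it, that of H3C4, where the stretch has the same position and letters as in H2AC7. CCAAT was present in all 18 H2B, 14 H2A and 11 H3 promoters, in 8 of 9 H1 and in 3 of 13 H4 promoters, against 33.0% of all promoters. TATAAA was present in 12 of 18 H2B promoters (66.7%), against 11.1% of all. The other classes had it in 10 of 14 H2A (71.4%), 8 of 11 H3 (72.7%), 7 of 13 H4 (53.8%) and 4 of 9 H1 promoters (44.4%). These counts include hits on the other strand or far from the start, such as that of H2BC4, 220 bases before it on the other strand. The search left out motif variants, so that absence says only that these letters were not there. Shared stretches between neighbours mean that these promoters are not separate observations.

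Human counts per library ranged from 12877165 to 15892705, out of totals of 16729091 to 19680449. The share of mouse counts, from host cells, was 15.6% to 30.2% without stress (median 20.5%), 18.6% to 24.6% with stress (median 20.8%) and 12.4% to 23.0% with post-stress (median 15.4%). Of 11 A549 epithelial and NRF2-active markers, 10 were expressed well enough to be tested. Of these, ALDH3A1 was called lower with stress against no stress, 5 had an unadjusted p under 0.05 there, and their part in the histone values was not tested. The exception, the keratin KRT19, had 1 to 12 counts per library. CDKN2A, a gene that A549 cells have lost, had no count in 13 libraries and 5 and 30 counts in the other two. Human rows of 20 leukocyte, endothelial and fibroblast markers summed to 133 to 238 CPM in no-stress, 144 to 204 in stress and 108 to 244 in post-stress libraries. CPM are counts scaled to the size of each library's human counts, with TMM factors. Within that list the markers of a kind differed widely. The leukocyte marker PTPRC was at most 0.143 CPM, whereas ADGRE1, also a leukocyte marker, had 8.14 to 19.3 CPM. The collagen gene COL1A1 had 41.6 to 197 CPM, whereas COL1A2 had no count in 14 libraries and COL3A1 at most 6 counts. PECAM1 had 7.27 to 24.5 CPM and DCN 1.05 to 48.3 CPM. Of the 20 markers, 9 had enough reads to be tested. Reads of conserved mouse sequence counted on human genes were not tested for. In bulk tumours fewer cells of a type and less RNA per cell cannot be told apart.

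All 71 histone genes together took 0.0275% to 0.0469% of the human counts of a library. Of the 71, 13 had no count in any library (H1-8, H2AC1, H2AC7, H2AC15, H2BC1, H2BC3, H2BC7, H3C4, H3C7, H3C11, H4C6, H4C7 and H4C13), and 45, these included, stayed under 10 counts in every library. H1-10 accounted for 33.4% of all counts on members. The filter on low counts passed 20 members, namely 2 H1 genes (H1-2 and H1-10), 4 H2A genes (H2AC6, H2AC11, H2AC13 and H2AC20), 8 H2B genes (H2BC4, H2BC5, H2BC6, H2BC11, H2BC12, H2BC15, H2BC18 and H2BC21), 3 H3 genes (H3C2, H3C6 and H3C10) and 3 H4 genes (H4C8, H4C9 and H4C16). The other 51 were not tested, and statements on tested genes do not extend to them. Whether the library kit selected RNA by its poly(A) tail is not given in the sources used here.

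Annotated transcripts differed in length between members with and without enough reads. GENCODE 29 held transcripts of 69 members, 19 of them tested. The longest transcript of a tested gene had a median of 1507 bases (range 381 to 4137), and that of a gene not tested 423 bases (range 297 to 2411). Counts were not divided by length, and many short entries hold little beyond the coding sequence. The stem-loop was found in a transcript of 13 of the 19 tested genes, among them 6 of 8 H2B, 3 of 4 H2A and all 3 H4 genes, but in neither H1 gene. Short entries, such as those of H1-2 (642 bases), H2BC12 (381) and H2AC20 (390), may end before a stem-loop. Its absence there thus does not show that the mRNA lacks it. Letters of the stem-loop in example genes, all in capitals because the whole element matters, were as follows.
H2BC4 and H2BC5: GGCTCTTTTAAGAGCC
H2AC6, H2BC21 and H3C10: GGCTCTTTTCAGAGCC
H4C8 and H4C16: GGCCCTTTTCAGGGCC
H4C9: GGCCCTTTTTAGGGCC
In H2BC4 and in H2BC5 the stem-loop was found in 1 of 2 annotated transcripts. The longest transcripts of H2BC4, H2BC5 and H2BC15 did not hold it. In 9 of these 13 genes the longest transcript ran more than 100 bases past the stem-loop, for example 1729 bases in H2BC21, 1128 in H2AC6 and 1655 in H4C8. Among the 50 members not tested, 15 had an annotated stem-loop and 11 of these a longest transcript that ran more than 100 bases past it. Such long ends were thus annotated for 9 of 19 tested and 11 of 50 other members, a difference that was not tested.

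**Figure D1:**
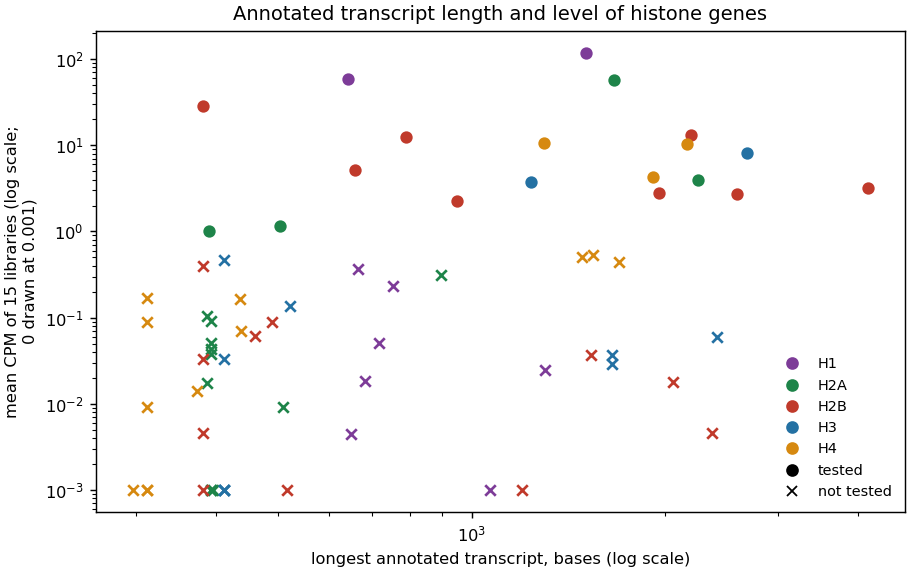
Each point is a histone gene with an annotated transcript in GENCODE 29 (n = 69), with the length of its longest transcript in bases across (log scale) and its mean CPM over 15 libraries upward (log scale, genes with no count drawn at 0.001). Filled circles, the 19 tested genes, have a median length of 1507 bases and crosses, the genes not tested, 423.

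Near-identical copies limit what single genes can show. Of the 50-base stretches of the annotated transcript of H2BC12, 74.1% also occur in another gene, and 28.4% of its 100-base stretches do. H2BC12L shares all of its own stretches with other genes and had at most 0.305 CPM. That value need not reflect its level, since the handling of reads that match several genes is not given. The corresponding shares were 8.52% and 0% for H2BC4, 0.432% and 0% for H2AC6, and 62.3% and 57.7% for H2AC13. H4C14 and H4C15, like H3C14 and H3C15, share every such stretch with each other. H4C14 had 51 counts in no-stress replicate 5 and 1 to 9 in the other 14 libraries, while H4C15 had 3 counts in that library and 22 in no-stress replicate 4. Counts of such a pair cannot be assigned to either copy. Exons on the other strand overlap 22.9% of H1-10 and 28.2% of H2BC6, and the strandedness of the counting is not given in the sources used here.

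In tumours of mice restrained before transplantation, 1 clustered or linker histone gene rose against no stress, the core gene H2BC4. No clustered or linker histone gene fell, and the other 19 tested members did not pass. Over all human genes tested, 10.5% were called in this comparison, 5.23% upward and 5.22% downward, so that 1 of 20 members is not a share above the background. The fold change was above 1 for 14 of 20 members, against 48.9% of all genes tested, and the median log2 fold change was 0.17, against -0.0072 over all genes. At an unadjusted p under 0.05 there were 4 of 20 members, against 26.1% of all genes.

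The tested linker genes gave no call in any comparison. H1-10, which codes for a linker histone made independently of replication, had 111 ± 18.1 CPM in the no-stress, 115 ± 20.7 in the stress and 126 ± 9.51 in the post-stress group (SD, n = 5 each). Its adjusted p was 0.832 for stress and 0.483 for post-stress against no stress. H1-2, a clustered linker gene on chromosome 6, had means of 59.1, 66.6 and 49.3 CPM in the same order. Its log2 fold change between stress and post-stress was 0.43 (SE 0.16, adjusted p = 0.315). All groups of H1-10 overlapped.

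**Figure D2:**
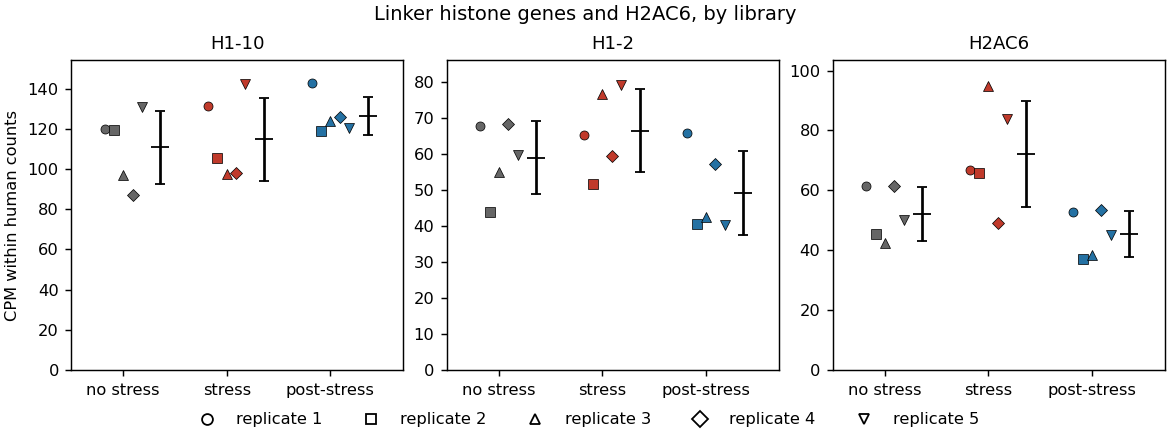
CPM of H1-10, H1-2 and H2AC6 in each library (symbols by replicate, colours by group), with mean ± SD (n = 5) to the right of each group. For H2AC6, 4 of 5 stress libraries, from 66.0 to 94.7 CPM, were above the highest no-stress library at 61.4 CPM, and the groups of H1-10 and H1-2 overlapped.

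H2BC4 (ENSG00000180596.7), a core histone H2B gene of the large cluster on chromosome 6 (26113170 to 26123926), had 5.20, 4.86, 4.02, 4.66 and 4.02 CPM in no-stress replicates 1 to 5. In the stress group it had 6.85, 7.32, 10.3, 5.61 and 10.3 CPM. In the post-stress group it had 4.49, 2.46, 2.74, 3.21 and 2.42 CPM. All 5 stress libraries were above all other libraries, and 4 of the 5 post-stress libraries were below every no-stress library. H2BC4 was the single tested member of 20 whose stress libraries were all above the no-stress libraries, and none had them wholly below. Of all 15435 genes tested, 632 (4.09%) were wholly above and 725 wholly below, so that 1 of 20 members is near the background. The values of H2BC4 rest on 34 to 153 counts per library. The means were 4.55 ± 0.521, 8.08 ± 2.12 and 3.06 ± 0.856 CPM (SD, n = 5 each). H2BC4 was 1.77-fold higher with stress than without (log2 fold change 0.83, SE 0.20, adjusted p = 0.0169). Between post-stress and no stress the log2 fold change was -0.57 (SE 0.21, adjusted p = 0.206). The call against no stress held in each of the 15 fits that left out a library, with adjusted p up to 0.0479.

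The call of H2BC4 against no stress ended when no-stress replicates 1 and 5, the libraries with the most mouse counts, were left out together (adjusted p = 0.0747), with a log2 fold change of 0.84. With the mouse share as a covariate it was still called (adjusted p = 0.0239).

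H2AC6 (ENSG00000180573.10, chromosome 6, 26124172 to 26124690), the H2A gene that shares its octamer with H2BC4, took most of the counts on H2A genes. It had 61.4, 45.3, 42.5, 61.4 and 49.98 CPM in no-stress replicates 1 to 5. In the stress group it had 66.8, 66.0, 94.7, 49.2 and 83.8 CPM. In the post-stress group it had 52.6, 37.0, 38.5, 53.6 and 45.1 CPM. Of the stress libraries, 4 were above every no-stress library and replicate 4 was not. The log2 fold change against no stress was 0.47 (SE 0.17, adjusted p = 0.0802), and that of stress against post-stress was 0.67 (SE 0.17, adjusted p = 0.131), and neither passed. Both passed with DESeq2's Wald test (adjusted p = 0.0407 and 0.0123) and without stress replicate 4 (adjusted p = 0.0183 and 0.0174). The remaining tested H2A genes, H2AC11, H2AC13 and H2AC20, had group means of 0.870 to 4.00 CPM. H2AC13 had the largest log2 fold change downward, -0.78 with stress (SE 0.40, adjusted p = 0.226) and -0.90 with post-stress (SE 0.40, adjusted p = 0.297), and did not pass.

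In tumours of mice restrained after transplantation, no clustered or linker histone gene changed against no stress. The count was 0 of 20 members with edgeR, with DESeq2's Wald test and with limma-voom, and 5 of 20 members had an unadjusted p under 0.05 with edgeR, against 15.2% of all genes. Over all genes 0.842% were called here, 92 upward (0.596%) and 38 downward (0.246%), or 59 upward and 62 downward when libraries were scaled to human totals alone. The fold change was below 1 for 17 of 20 members, against 51.2% of all genes, and the median log2 fold change was -0.27, against -0.0059 over all genes. The smallest adjusted p belonged to H2BC12 (log2 fold change -0.36, SE 0.11, adjusted p = 0.127). The other members under the unadjusted threshold were H2BC4, H2BC18 (-0.85, SE 0.31, adjusted p = 0.202), H4C9 (-0.42, SE 0.17, adjusted p = 0.245) and H2AC13.

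Set against each other, the restrained groups differed in 2 H2B genes, H2BC4 and H2BC12, both higher when restraint came before transplantation. Of all human genes 0.0389% were called in this comparison, 4 upward (0.0259%) and 2 downward, so that 2 of the 4 upward genes were H2B genes. H2BC4 was 2.63-fold higher with stress than with post-stress (log2 fold change 1.40, SE 0.21, adjusted p = 0.0242). The fold change was above 1 for 17 of 20 members, against 49.2% of all genes, with a median log2 fold change of 0.38, against -0.0031 over all genes. At an unadjusted p under 0.05 there were 9 of 20 members, 6 of them among the 8 tested H2B genes, against 11.1% of all genes. This comparison and that against no stress use the same stress libraries, so their values are not independent.

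H2BC12 (ENSG00000197903.8, chromosome 6, 27138293 to 27146858), a core H2B gene with 260 to 592 counts per library, had 34.1, 26.7, 27.6, 28.8 and 24.1 CPM in no-stress replicates 1 to 5. In the stress group it had 31.5, 34.7, 39.9, 31.8 and 36.7 CPM. In the post-stress group it had 25.9, 17.8, 22.6, 22.8 and 20.8 CPM. All stress libraries were above all post-stress libraries, and the no-stress libraries overlapped with both. The means were 28.3 ± 3.71, 34.9 ± 3.51 and 22.0 ± 2.97 CPM (SD, n = 5 each). H2BC12 was 1.59-fold higher with stress than with post-stress (log2 fold change 0.67, SE 0.11, adjusted p = 0.0290). Against no stress the log2 fold change was 0.30 (SE 0.11, adjusted p = 0.0809), and passed without no-stress replicate 1 (adjusted p = 0.0493). Whether part of these counts came from other H2B genes with the same sequence was not tested.

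H2BC18, an H2B gene on chromosome 1 (149782689 to 149812370), was the third member whose stress libraries were all above the post-stress libraries. Of the 20 tested members 3 were thus wholly above and 0 wholly below. Of all 15435 genes tested, 147 (0.952%) were wholly above and 116 wholly below. H2BC18 had 3.46, 2.30, 4.17, 2.77 and 6.42 CPM in stress replicates 1 to 5. In the post-stress group it had 1.73, 1.57, 0.771, 1.98 and 2.21 CPM. The gap between the lowest stress and the highest post-stress library was small, and H2BC18 had 11 to 91 counts per library. Its log2 fold change of 1.21 (SE 0.31, adjusted p = 0.131) did not pass with edgeR, but did with DESeq2's Wald test.

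The calls between the restrained groups were close to the threshold. Those of H2BC4 and H2BC12 both ended with the mouse share as a covariate (adjusted p = 0.0841 for each), although the log2 fold changes were then 1.41 and 0.66. They also ended when the fit held only the groups compared (adjusted p = 0.0517 for each). That of H2BC4 ended in 6 of 15 fits without a library, namely stress replicates 2, 3 or 5 and post-stress replicates 2, 3 or 5 (adjusted p up to 0.0978). That of H2BC12 ended in the same 6 and without no-stress replicate 3 or post-stress replicate 4 (adjusted p up to 0.127). Without stress replicate 4, 4 members were called, H2AC6 and H2BC21 in addition.

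**Figure D3:**
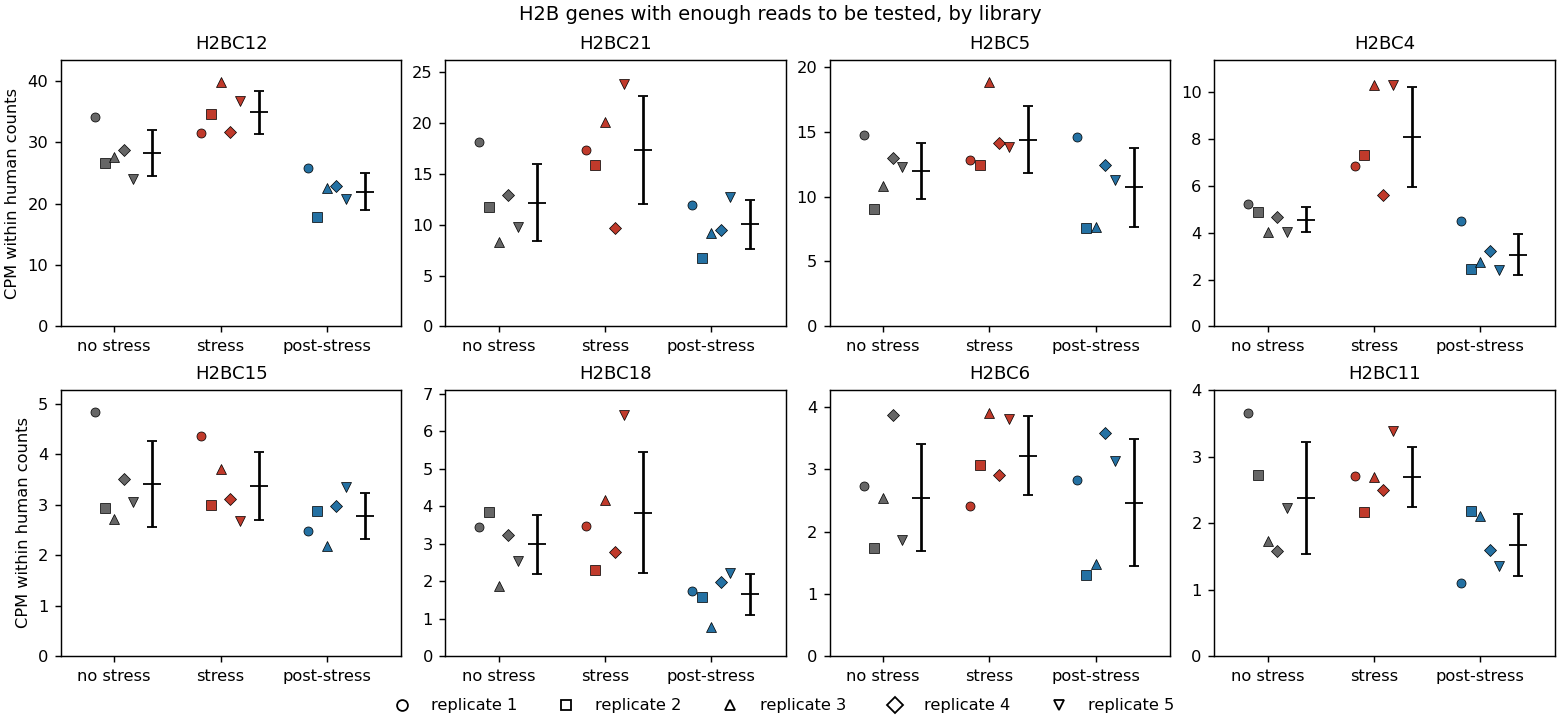
CPM of the 8 tested H2B genes in each library (symbols by replicate, colours by group), with mean ± SD (n = 5) to the right of each group. For H2BC4 the stress libraries, 5.61 to 10.3 CPM, were above all others, and for H2BC12 and H2BC18 they were above all post-stress libraries.

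The 8 tested H2B genes had like orders of group means. In 7 of them the order was stress, no stress, post-stress from high to low, and in H2BC15 it was no stress, stress, post-stress. The first order was also that of 1 H1, 2 H2A and 1 H4 gene, and its share over all genes was not counted. The H2B genes were measured in the same libraries and are not separate observations. All 8 had a fold change below 1 for post-stress against no stress, and all 8 one above 1 for stress against post-stress, although in the edgeR fit of all libraries only H2BC4 and H2BC12 were called. The median log2 fold changes of the H2B genes were 0.32 for stress and -0.33 for post-stress against no stress, and 0.67 for stress against post-stress. H2BC21, an H2B gene on chromosome 1 known to give polyadenylated mRNA, had means of 12.2 ± 3.77, 17.3 ± 5.27 and 10.03 ± 2.39 CPM (SD, n = 5 each) and did not pass (adjusted p = 0.189 for stress against no stress, 0.207 for stress against post-stress). No-stress replicate 1, the library with the largest mouse share at 30.2%, was the highest of its group in 6 of the 8 genes, and the part of the mouse share in this was not tested.

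**Figure D4:**
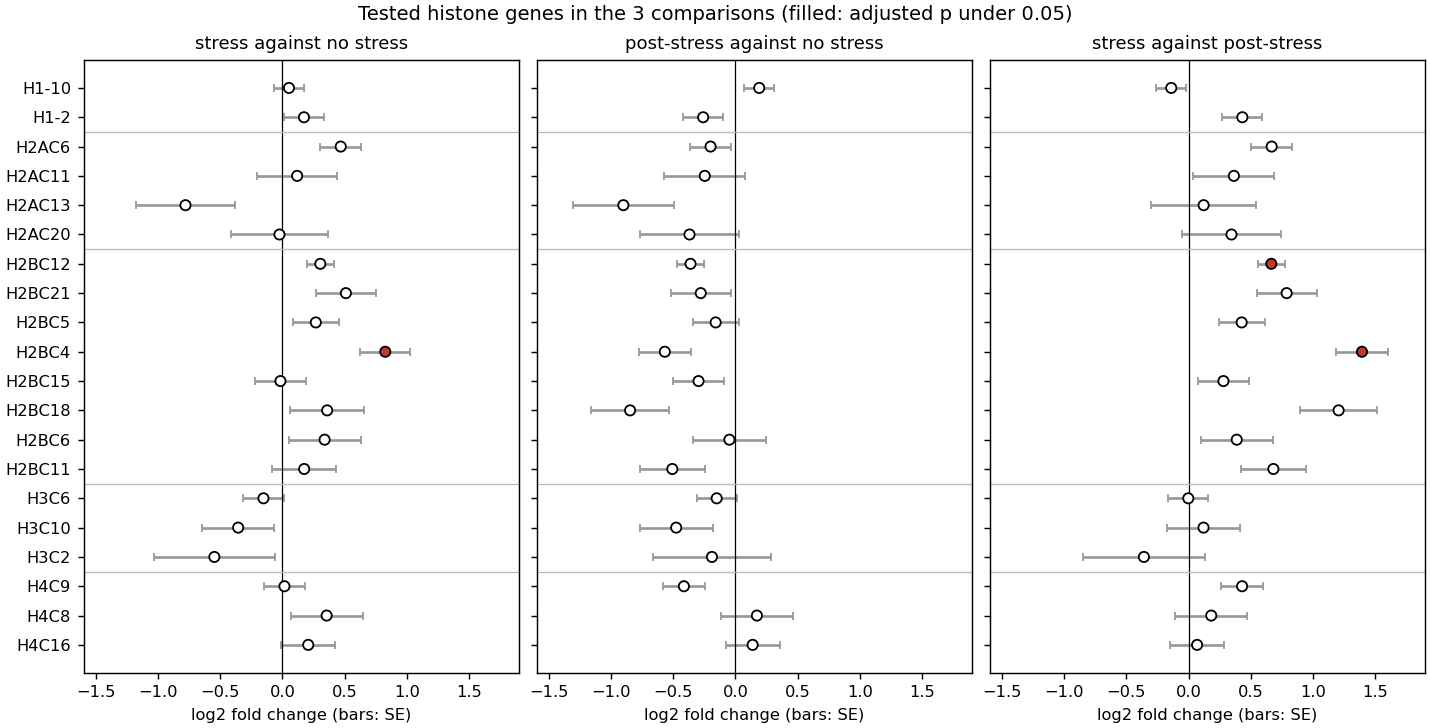
Log2 fold change ± SE of each of the 20 tested histone genes in the 3 comparisons, grouped by class from H1 at the top to H4 at the bottom, with filled symbols for an adjusted p under 0.05. Calls are H2BC4 for stress against no stress, none for post-stress against no stress, and H2BC4 and H2BC12 for stress against post-stress.

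The core partners H3 and H4 gave no call. All 3 tested H3 genes had a log2 fold change below 0 for both restrained groups against no stress, with H3C6 at -0.15 (SE 0.16, adjusted p = 0.593) and -0.15 (SE 0.16, adjusted p = 0.714). H3C6 (ENSG00000274750.3, chromosome 6, 26224178 to 26227473) took the most counts of the H3 class and had means of 8.69 CPM in the no-stress, 7.81 in the stress and 7.83 in the post-stress group. H3C10 had 4.51, 3.52 and 3.25 CPM, and the low H3C2 did not pass either (smallest adjusted p over the 3 comparisons 0.510). H4C9 (ENSG00000276180.1, chromosome 6, 27139282 to 27139678) had 11.5, 11.7 and 8.65 CPM, and H4C8 had 9.24, 11.8 and 10.4 CPM. The third H4 gene, H4C16 on chromosome 12, had an adjusted p of 0.588 or more in each comparison.

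Summed over all members of a class, H1 reached 170.2 ± 18.2 CPM in the no-stress, 182 ± 28.5 in the stress and 176 ± 20.7 in the post-stress group (SD, n = 5 each, here and below). H2A sums were 59.5 ± 10.7, 79.1 ± 18.5 and 51.2 ± 9.15 CPM. H2B sums were 68.9 ± 11.6, 88.5 ± 13.7 and 55.0 ± 8.87 CPM. The H2B sums of stress (73.4 to 104 CPM) and post-stress (43.1 to 65.8 CPM) did not overlap, and the ratio of means was 1.61. H3 sums were 14.8 ± 4.13, 12.8 ± 1.62 and 12.5 ± 2.01 CPM, and H4 sums 27.7 ± 4.19, 29.5 ± 5.69 and 24.9 ± 4.88 CPM. Each sum rests on few genes, since H2BC12, H2BC21 and H2BC5 made up 40.1%, 18.6% and 17.4% of the H2B sum on a scale not divided by length. No test was made on these sums.

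**Figure D5:**
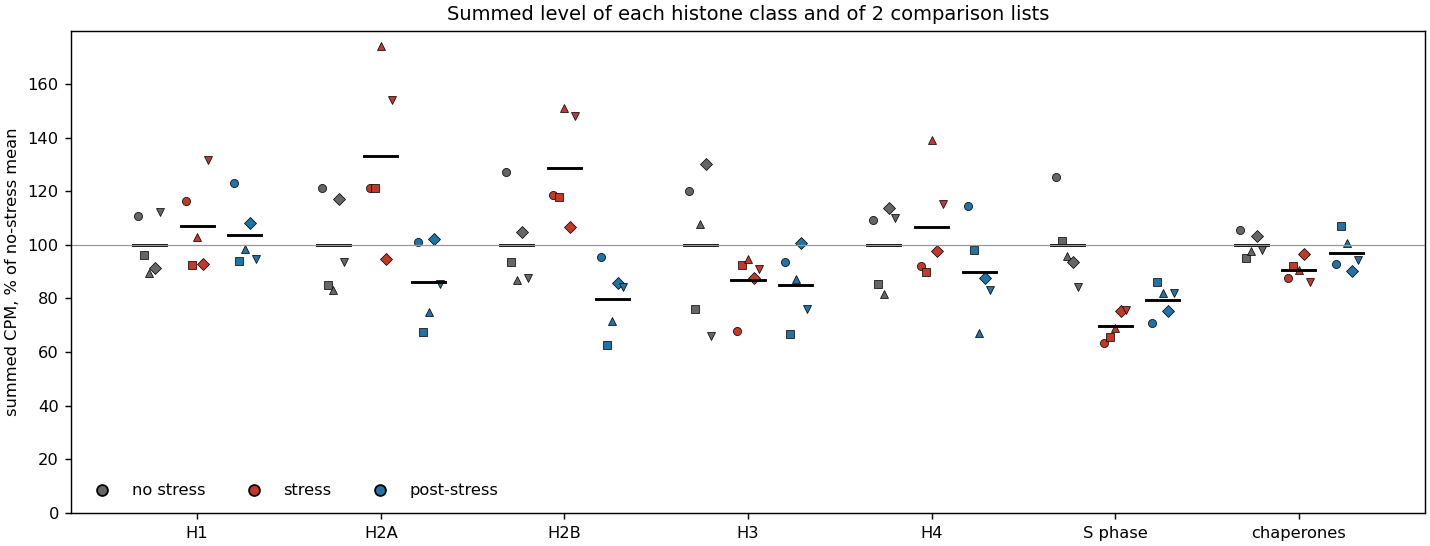
Summed CPM of each histone class and of 2 comparison lists in each library, as a percentage of the no-stress mean (symbols by replicate as in the plot of H2B genes, bars the group means). H2B sums of stress and post-stress do not overlap, H3 sums overlap between all groups, and the S-phase sums of all stress libraries are below those of all no-stress libraries.

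No tested gene of DNA replication, histone assembly or histone mRNA processing rose with stress against no stress. Of 24 S-phase and DNA replication genes tested, 20 fell and none rose with stress against no stress, where 5.22% of all genes were called lower. With post-stress 4 fell (FEN1, MCM3, MCM6 and PCNA), where 0.246% of all genes were called lower. None passed between the restrained groups, where 5 had an unadjusted p under 0.05. Their summed level was 1327 to 1972 CPM in no-stress, 1000 to 1192 in stress and 1114 to 1356 in post-stress libraries. MCM6, a subunit of the replicative helicase, fell by 0.71 on the log2 scale with stress (SE 0.11, adjusted p = 0.00252), and PCNA, the sliding clamp of DNA polymerases, fell by 0.41 (SE 0.086, adjusted p = 0.00760). MKI67, a marker of cycling cells, fell by 0.58 on the log2 scale with stress (SE 0.15, adjusted p = 0.0272). Thus the replication genes and H2BC4 were called in opposite directions in the same libraries.

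Histone chaperones, which carry new histones to DNA, had 8 members lower and none higher among 24 tested with stress against no stress, beside the same 5.22% of all genes called lower. The lower ones were ANP32E, CHAF1A, CHAF1B, HAT1, MCM2 (also on the S-phase list), NASP, SSRP1 and SUPT16H. CHAF1A and CHAF1B, subunits of the chromatin assembly factor that works at replication forks, fell by 0.57 and 0.54 on the log2 scale (adjusted p = 0.0132 and 0.00819). No chaperone passed in the other comparisons, where 7 had an unadjusted p under 0.05 for post-stress against no stress and 2 for stress against post-stress. Of 25 tested genes of histone transcription and mRNA processing, 2 were called lower with stress, the Sm protein gene SNRPD3 and the RNA helicase gene UPF1, and none higher, which is near the background of 5.22% called lower. None passed with post-stress (5 at an unadjusted p under 0.05) or between the restrained groups (3). SLBP, the stem-loop binding protein, had 50.6 ± 2.23, 51.3 ± 3.53 and 48.1 ± 4.19 CPM (SD, n = 5 each; adjusted p = 0.891 for stress and 0.692 for post-stress against no stress). NPAT, a co-activator of S-phase histone transcription, had 16.8 ± 1.94, 18.5 ± 2.73 and 16.6 ± 3.17 CPM (adjusted p = 0.580 and 0.964).

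Among variants of core histones that are not members here, 4 of 10 tested fell and 1 rose with stress against no stress. Of all genes, 5.22% were called lower and 5.23% higher there. H2AX, the variant phosphorylated at DNA breaks, fell by 0.65 on the log2 scale (SE 0.12, adjusted p = 0.00528), and H2AZ1, H2AZ2 and MACROH2A1 also fell. H3-3B, a gene for the replacement histone H3.3, rose with a log2 fold change of 0.36 (SE 0.11, adjusted p = 0.0485). H3-3A, which codes for the same protein, had a log2 fold change of -0.25 (SE 0.078, adjusted p = 0.0515). CENPA, the histone H3 variant of centromeres, did not pass, at -0.50 (SE 0.16, adjusted p = 0.0508). None of these variants passed in the other comparisons, where 2 had an unadjusted p under 0.05 for post-stress against no stress and 3 for stress against post-stress.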

How the data were processed

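Per the labels' protocols, TRIzol was used for RNA extraction and a Fast RNA-seq Lib Prep Kit V2 for the libraries. The deposited values are raw counts per gene in 15 libraries, and each of the 15 columns matched a sample. The submitters' processing notes name Trimmomatic (0.39), HISAT2 (2.2.1), featureCounts (2.0.6) and the builds hg38 and mm10. They also name DESeq2 and edgeR. Not given in the sources used here are the strandedness, read length, handling of multi-mapping reads, annotation release, and whether both genomes were used together.

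Symbols came from the reference table (60463 of 60649 human identifiers) and gene coordinates from RefSeq. Counts of human genes were filtered with filterByExpr (15435 genes, 99.8% of human counts), scaled with TMM, and fitted over all 15 libraries with edgeR's robust quasi-likelihood test (edgeR 4.0.16, limma 3.58.1, R 4.3.3). Adjusted p-values are Benjamini-Hochberg over all genes tested, with calls at 0.05. Standard errors are log2 fold changes over the root of their F statistic. The procedure was also run on counts simulated under edgeR's own model with planted changes. Such a run checks the code and cannot show how mouse reads or near-identical copies bear on the calls. Stretches of 50 and 100 bases were compared over all GENCODE 29 transcripts. Replicates of a group differed beyond sampling noise.

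A member that the rule also takes, and a marker gene, are not reported here and are left out of all counts and sums of the lists. Members and lists were chosen with earlier results of these data known. Values were given for members called in any comparison, the member of highest mean CPM per class, H1-10, and from other lists for up to 4 called genes by smallest p and SLBP, NPAT, CENPA and H2AX. Other genes named were chosen after their values were seen. As alternatives, other scalings (DESeq2 size factors, human totals alone), other tests (limma-voom, the Wald test of DESeq2 1.42.0), other filters (none, or 1 CPM or more in 5 libraries), fits of only the groups compared, a replicate block, the mouse share as covariate, and fits without each library were run. Leaving out no-stress replicates 1 and 5 together was chosen after seeing the data.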

Additional observations from a re-analysis of the deposited data

Results flagged for a closer look

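The summed level of the H3 genes in stress replicate 1, 10.0 CPM, was set apart from the other 4 stress libraries, of which the lowest had 13.0 CPM. The gap to the nearest library was 0.743 of the range of the group, above the limit of 0.71 for 5 libraries. Across the 33 groups looked at, this was the single one above that limit, and chance alone gives about 1 in 20. The H3 sums of the 5 no-stress libraries ranged from 9.74 to 19.3 CPM and included this value.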

How the results depend on the processing

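The number of histone genes called with stress against no stress (1) was 2 with DESeq2's Wald test, 1 to 2 without single libraries and 0 without no-stress replicates 1 and 5. Between stress and post-stress (2) it was 4 with DESeq2's Wald test, 0 with only the groups compared, 0 with the mouse share as covariate and 0 to 4 without single libraries. With post-stress against no stress it was 0 in each of the 25 alternatives. Over all human genes, the 1613 calls of stress against no stress became 546 without no-stress replicates 1 and 5 and 661 to 1834 without single libraries. The 130 calls of post-stress against no stress became 504 with DESeq2's Wald test, 49 with only the groups compared, 38 with the mouse share as covariate, 32 without no-stress replicates 1 and 5 and 37 to 144 without single libraries. The 6 calls of stress against post-stress became 203 with DESeq2's Wald test, 36 with no filter, 1 with only the groups compared, 0 with the mouse share as covariate and 0 to 189 without single libraries. The causes were not tested. In all 195 alternatives for the class sums, the log2 ratio of group means moved by less than 1 SD of the log2 sums between libraries. Most of these alternatives left out a single library, which can hardly move a mean of 5 that far, so the count does not show stability.

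Whether replicate numbers pair the libraries is not given in the sources used here. Correlations between same-numbered libraries ran from -0.191 to 0.124, and mean correlations with other numbers from -0.0265 to 0.0538. A weak pairing need not show in such values. With the replicate block, calls over all genes were 990, 57 and 0 in the 3 comparisons, and histone calls 1, 0 and 0. H2BC4 and H2BC12 then had an adjusted p of 0.117 between stress and post-stress. Low counts kept 51 members from being tested. Of these, 13 had no count at all, and of the 38 that entered the fit with no filter none was called.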
